A study of Homo sapiens with 4 samples.

Results

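Transcript levels of 9 genes for enzymes of the tricarboxylic acid cycle were examined in HCT116 cells, a line from a human colorectal carcinoma, after knockdown of RALY. The genes are CS, IDH3A, IDH3B, IDH3G, OGDH, DLST, SUCLG1, SUCLG2 and SUCLA2. They were taken as a fixed list of enzyme names, chosen with earlier results of these data known. All 9 were matched by symbol among the 58884 genes of the count tables. RALY binds RNA and belongs to the hnRNP proteins. The tables cover 2 RALY knockdown libraries and 2 control libraries. Per the labels, cells were exposed for 72 h to lentivirus with a short hairpin RNA (shRNA) against Raly or a nonsilencing one. Elsewhere the labels name the controls as wild type or untreated, and which of these they were is not settled here. The sources used here give neither the hairpin sequence or number nor whether replicate libraries came from cultures grown apart. P-values therefore measure a spread between libraries that may be technical.

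The cycle oxidises acetyl groups in the mitochondrial matrix and passes the electrons to NAD+ and to the respiratory chain. Citrate synthase joins acetyl-CoA to oxaloacetate. The NAD-dependent isocitrate dehydrogenase, IDH3, then makes 2-oxoglutarate, and the 2-oxoglutarate dehydrogenase complex makes succinyl-CoA. Succinyl-CoA ligase converts this to succinate and makes a nucleoside triphosphate. It pairs an alpha subunit, SUCLG1, with a beta subunit that sets the nucleotide: SUCLG2 gives the GTP-forming enzyme and SUCLA2 the ATP-forming enzyme. In colorectal carcinoma cells the cycle is also fed by glutamine, which enters as 2-oxoglutarate.

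Libraries held 14762755 to 16493967 counts in the knockdown and 13360007 to 16847520 in the control. RALY itself had 634 and 522 counts in the knockdown libraries, against 1903 and 2132 in the controls, so that 27.9% of the control level remained. All 8 colorectal epithelial markers had at least 10 counts in every library, 1 of them was called as lower, and their summed level ran from 725 to 776 CPM (counts scaled to 1000000 per library) in the knockdown and from 694 to 787 CPM in the control. Summed leukocyte markers, 5 genes, ran from 5.80 to 7.80 CPM in the knockdown and from 2.96 to 4.17 CPM in the control, with 1 of the 5 at 10 or more counts in every library. These leukocyte sums did not overlap, and their part in the values below was not tested. The fibroblast, endothelial and packaging cell lists overlapped between the groups in summed level, no gene of these lists or of the leukocyte list was called, and no marker of any list was at 0 in all libraries. The 13 mitochondrially encoded protein genes summed to 1186 and 1247 CPM in the knockdown, against 1410 and 1111 CPM in the controls, so that these ranges overlapped. Counts were taken to level off relative to transcript length, which would compress fold changes of abundant genes. The sources used here do not state this. Counts per base of canonical transcript were 2.07 for GAPDH, 1.66 for ACTB and 0.934 for EEF1A1, beside 1.17 for CS, so the ceiling was not uniform. Occupancy is the mean count as a share of 2 read starts per base of the canonical transcript. It expresses how far a gene would have levelled off and is given below where it bears on a value. Occupancy and the correction for levelling off both take the canonical length, and over a longer full exon length occupancy would be lower. For the mitochondrially encoded genes occupancy was not computed, so their overlapping sums do not show that these transcripts were unchanged.

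Of the 9 enzyme genes, 3 were lower in the knockdown and none was higher (edgeR quasi-likelihood test; 0 higher also at an unadjusted p under 0.05 and 0 higher with DESeq2). These were SUCLG2 and SUCLA2, the alternative beta subunits of succinyl-CoA ligase, and OGDH, the catalytic E1 subunit of 2-oxoglutarate dehydrogenase. They stood at 47.4%, 68.0% and 67.1% of the control level. A gene was called at a Benjamini-Hochberg adjusted p under 0.05 in edgeR's quasi-likelihood test over all 19686 genes tested. The share called over all tested genes was 25.6%, with 13.1% called as lower and 12.5% as higher, and 33.3% of the 9 were called. CPM did not overlap between the groups for 5 of the 9 genes, each lower in the knockdown, beside 63.6% of all tested genes in either direction and 31.3% towards lower. With 9 genes, the called share lies near the background and is read as values of single genes. The median log2 fold change (knockdown over control) was -0.17 over the 9, beside 0.01 over all tested genes. In bulk RNA, fewer cells of a kind and less RNA per cell cannot be told apart.

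**Figure D1:**
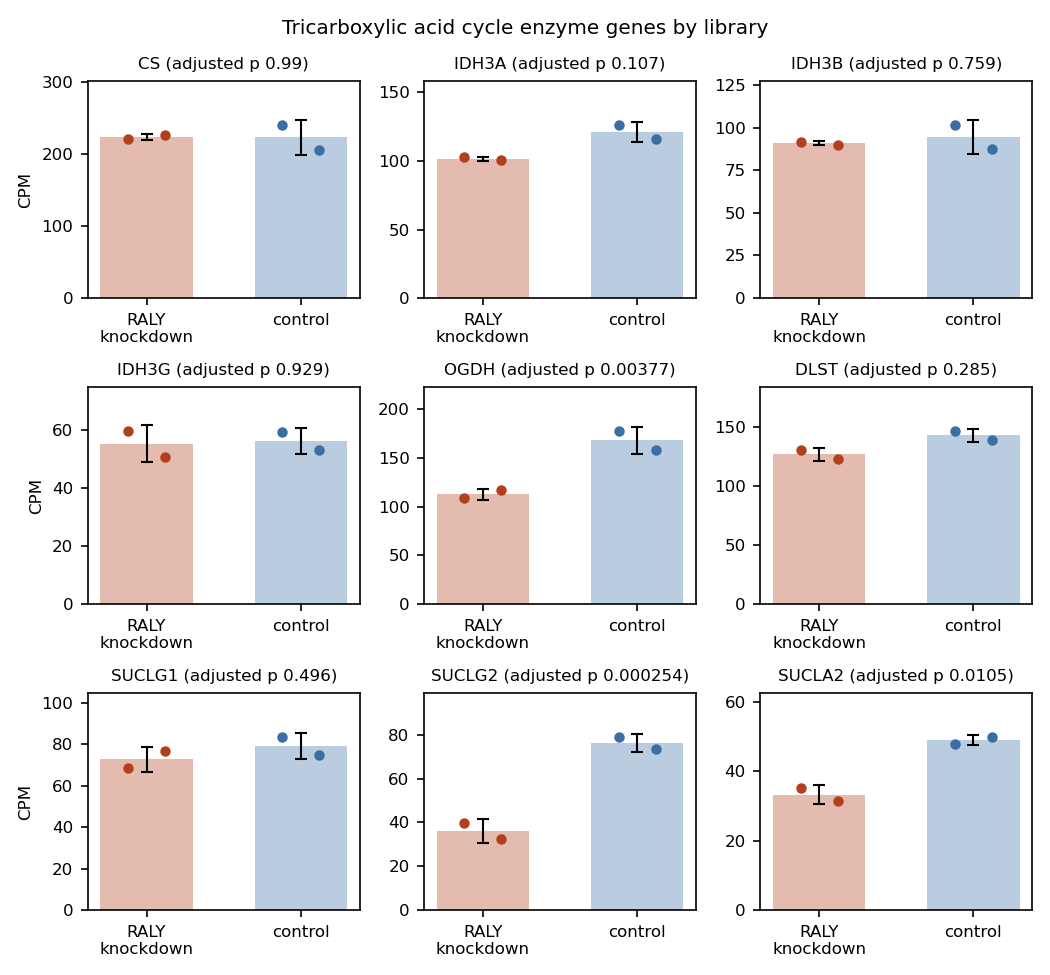
Level of each of the 9 enzyme genes in CPM, by library. Points are libraries, bars are group means and error bars are SD (n = 2 each), with RALY knockdown left of control and each vertical axis starting at 0. Both knockdown points lie below both control points for OGDH, SUCLG2 and SUCLA2, and also for IDH3A and DLST, which were not called.

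The largest difference among the 9 was that of SUCLG2 (ENSG00000172340, chromosome 3, positions 67360460 to 67654614, minus strand, GRCh38), a protein-coding gene with 11 exons in its canonical transcript. It had 640 and 479 counts in the knockdown libraries, against 1043 and 1268 in the controls. Its level was 36.1 ± 5.46 CPM in the knockdown and 76.2 ± 4.03 CPM in the control (SD, n = 2 each). The groups did not overlap, and the higher knockdown library was still well under the lower control library. On the log2 scale the fold change was -1.08, with SE 0.136 and an edgeR adjusted p of 0.000254, and 4.47% of all tested genes had a lower value. The call held with each library left out in turn, with log2 fold changes from -1.26 to -0.94 and an edgeR adjusted p of at most 0.0287. None of its exon bases is shared with another gene of the tables, and its listed pseudogenes, SUCLG2P2 and SUCLG2P4, had between 0 and 3 counts in any library.

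SUCLA2 (ENSG00000136143, chromosome 13, positions 47745736 to 48037968, minus strand), which gives the ATP-forming ligase, had 565 and 466 counts in the knockdown libraries, against 633 and 863 in the controls. Scaled to CPM, it was at 33.3 ± 2.77 in the knockdown and 48.9 ± 1.38 in the control (SD, n = 2 each), and the groups did not overlap. This is a log2 fold change of -0.56 with SE 0.135 (edgeR adjusted p = 0.0105). Without control replicate 1 it was -0.62 with an edgeR adjusted p of 0.0963, and without control replicate 2 it was -0.54 with an edgeR adjusted p of 0.133, so the call was lost without either control.

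SUCLG1 (ENSG00000163541, chromosome 2, positions 84423528 to 84460045, minus strand) encodes the alpha subunit that both forms of the ligase need. It had 1100 and 1144 counts in the knockdown libraries, against 1104 and 1292 in the controls. The level was 72.8 ± 5.87 CPM in the knockdown and 79.2 ± 6.32 CPM in the control (SD, n = 2 each), with overlapping groups. The log2 fold change was -0.12, with a 95% interval from -0.38 to 0.14 (edgeR quasi-likelihood adjusted p = 0.496). The 95% interval of SUCLG2 ran from -1.37 to -0.78, and that of SUCLA2 from -0.85 to -0.26, which overlaps the SUCLG1 interval. Whether the fold changes of SUCLG1 and SUCLA2 differ was not tested. On the canonical length, the occupancy of SUCLG1 was 45.7%, against 18.2% for SUCLG2 and 15.0% for SUCLA2, so the fold change of SUCLG1 can be more compressed. This contrast depends on the length taken. Canonical lengths are 1270 bases for SUCLG1, 2350 for SUCLG2 and 2111 for SUCLA2, while full exon lengths are 4162, 3090 and 8928 bases. With counts corrected for levelling off, the log2 fold changes were -0.17 for SUCLG1, -1.20 for SUCLG2 and -0.61 for SUCLA2.

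The balance of the 3 ligase genes was compared within each library. Per kilobase of canonical transcript, SUCLG2 made up 50.4% and 48.0% of the summed level of both beta subunit genes in the knockdown libraries, against 59.7% and 56.9% in the controls. Thus SUCLG2 was the more abundant beta transcript in both controls, while the beta transcripts were nearly level in the knockdown. The mean share was 49.2 ± 1.72% in the knockdown and 58.3 ± 1.97% in the control (SD, n = 2 each), a difference of -9.07 percentage points. The summed beta level per SUCLG1 was 0.623 and 0.471 in the knockdown libraries, against 0.856 and 0.932 in the controls. For both measures the exact two-sided permutation test gave p = 0.33, the smallest p that 2 against 2 libraries allow. Both measures depend on the length used. With the full exon length of the tables, SUCLG2 made up 75.7% in the knockdown and 81.8% in the control. The level per SUCLG1 was not recomputed with that length, so whether the beta sum lies below the SUCLG1 level is not settled. It also divides by uncorrected SUCLG1 counts, at an occupancy of 45.7%.

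**Figure D2:**
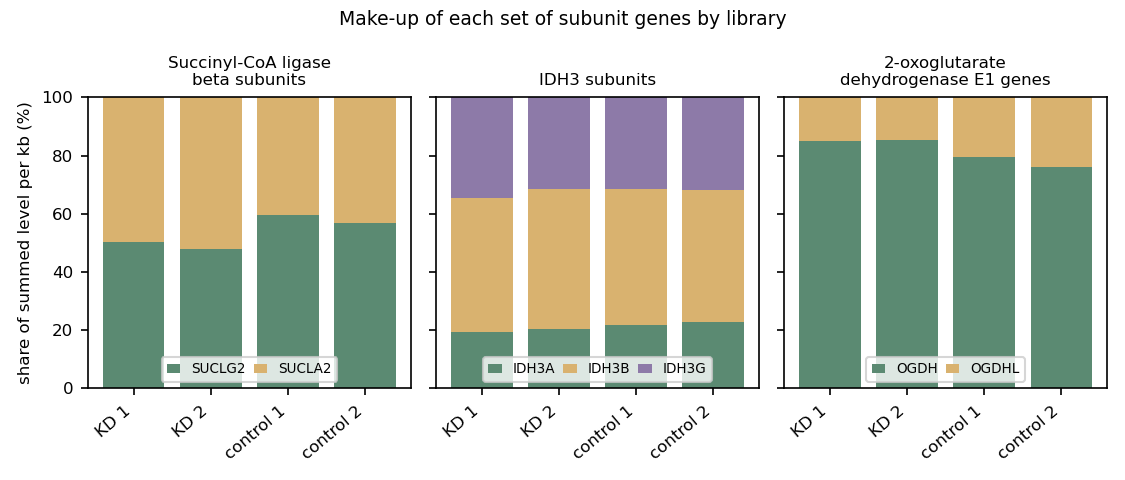
Make-up of 3 sets of subunit genes in each library, as the share (%) of the summed level per kilobase of canonical transcript, with the knockdown libraries (KD) left of the controls. The SUCLG2 share is 50.4% and 48.0% in the knockdown and 59.7% and 56.9% in the controls, while the IDH3 shares move by less than 3 percentage points between group means.

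The beta subunit genes were called as lower and the alpha subunit gene was not, though a difference between SUCLA2 and SUCLG1 was not tested. As a description, the 250 bases before the RefSeq start of each of the 3 ligase genes are shown. The part of these sequences in the fold changes was not tested. The sequences are from RefSeq on GRCh38.p14 and lie on the minus strand at chr3:67654613-67654862 for SUCLG2, chr13:48001274-48001523 for SUCLA2 and chr2:84459281-84459530 for SUCLG1. The SUCLA2 and SUCLG1 windows lie inside the gene spans given above, so the counted exons of these genes reach upstream of the RefSeq start. Windows before starts further upstream were not searched. Capitals mark matches to the motifs searched on both strands.
SUCLG2: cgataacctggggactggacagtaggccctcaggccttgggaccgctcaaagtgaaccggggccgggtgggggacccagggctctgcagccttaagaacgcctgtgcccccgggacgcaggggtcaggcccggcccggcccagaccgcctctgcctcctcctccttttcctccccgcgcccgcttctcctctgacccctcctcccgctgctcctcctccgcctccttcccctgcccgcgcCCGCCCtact
SUCLA2: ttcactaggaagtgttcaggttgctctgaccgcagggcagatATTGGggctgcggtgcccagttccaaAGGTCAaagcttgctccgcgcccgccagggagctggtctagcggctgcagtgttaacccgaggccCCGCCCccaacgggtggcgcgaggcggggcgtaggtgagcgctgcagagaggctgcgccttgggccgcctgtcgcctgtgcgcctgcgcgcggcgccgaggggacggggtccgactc
SUCLG1: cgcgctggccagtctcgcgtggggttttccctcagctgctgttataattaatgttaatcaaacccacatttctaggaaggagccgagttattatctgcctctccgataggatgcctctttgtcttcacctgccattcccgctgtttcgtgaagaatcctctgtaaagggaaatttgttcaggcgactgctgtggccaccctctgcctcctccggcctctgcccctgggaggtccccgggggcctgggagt

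The G and C share of these windows was 71.2% for SUCLG2, 69.2% for SUCLA2 and 55.2% for SUCLG1, beside a median of 58.0% over 27305 promoters. The share does not separate called from uncalled genes: it was 67.6% for CS, 70.0% for IDH3A, 70.4% for IDH3G and 69.6% for DLST, none of them called, and the median over the 8 enzyme genes with a window was 69.4%. The 3 windows of the ligase genes held 18, 25 and 11 CG dinucleotides, beside a median of 11 over all promoters. The CG count does not separate called from uncalled genes either. It was 21 for CS, 26 for IDH3A, 15 for IDH3B, 33 for IDH3G and 22 for DLST. The median over the 8 enzyme genes with a window was 21.5. A GC box (GGGCGG) stood in the SUCLG2 and SUCLA2 windows, and also in those of the uncalled CS, IDH3A and DLST, as in 42.3% of all promoters. The SUCLA2 window also held a CCAAT box (CCAAT, 33.0% of all promoters) and a single copy of the hexamer that nuclear receptor elements repeat (AGGTCA, 12.1%). A CCAAT box also stood in the windows of the uncalled CS and IDH3G, and the hexamer in that of the uncalled IDH3B. The SUCLG1 window held none of the 9 motifs searched. Beside those 3 motifs these were an ETS site (CCGGAAG, 8.82%), a partial NRF1 site (TGCGCA, 7.05%), an ATF4 element (TGATGNAAN, 3.18%), an E-box (CACGTG, 6.49%), a cyclic AMP response element (TGACGTNA, 2.82%) and a TATA box (TATAAA, 11.1%). No member with a promoter in the reference table held an ATF4 element, E-box, cyclic AMP response element or TATA box. Of the 9 genes, 8 had an entry in that table, OGDH being the other. A match describes letters in these windows and is not evidence of binding.

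OGDH (ENSG00000105953, chromosome 7, positions 44606572 to 44709066, plus strand, 23 exons in the canonical transcript) encodes the thiamine-dependent E1 subunit that decarboxylates 2-oxoglutarate. It had 1745 and 1736 counts in the knockdown libraries, against 2349 and 2736 in the controls. The level was 113 ± 5.56 CPM in the knockdown and 168 ± 14.0 CPM in the control (SD, n = 2 each), and the groups did not overlap. The difference was -0.58 on the log2 scale, with SE 0.116 (edgeR adjusted p = 0.00377). Without control replicate 1 it was -0.53, with an edgeR adjusted p of 0.0572. OGDH shares no exon base with another gene.

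DLST (ENSG00000119689, chromosome 14, positions 74881891 to 74903743, plus strand) encodes the lipoyl-carrying E2 core of the same complex. It had 2091 and 1828 counts in the knockdown libraries, against 1933 and 2396 in the controls, or 127 ± 5.33 CPM in the knockdown and 143 ± 5.59 CPM in the control (SD, n = 2 each). The groups did not overlap in CPM, but the difference did not pass the test (log2 fold change -0.17, 95% interval -0.41 to 0.07, edgeR quasi-likelihood adjusted p = 0.285). The E3 subunit gene DLD, which is shared with the other 2-oxoacid dehydrogenases, had a log2 fold change of -0.19 and was not called. Per kilobase, OGDH stood at 0.560 and 0.637 of the DLST level in the knockdown libraries, against 0.815 and 0.766 in the controls. The exact two-sided permutation test gave p = 0.33, its smallest possible value. OGDHL, a paralog of OGDH that also encodes an E1 subunit, was lower too, with 275 and 261 counts in the knockdown libraries, against 537 and 759 in the controls (log2 fold change -1.29, SE 0.151, edgeR quasi-likelihood adjusted p = 0.000158). OGDHL made up 14.8 ± 0.421% of the summed E1 level per kilobase in the knockdown and 22.2 ± 2.36% in the control (SD, n = 2 each; exact two-sided permutation p = 0.33).

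The gene for citrate synthase was not called. CS (ENSG00000062485, chromosome 12, positions 56271699 to 56300391, minus strand), citrate synthase, had 3529 and 3366 counts in the knockdown libraries, against 3172 and 3551 in the controls. It averaged 223 ± 4.37 CPM in the knockdown and 223 ± 24.7 CPM in the control (SD, n = 2 each), and the knockdown libraries lay between the controls. The log2 fold change was 0.00, with a 95% interval from -0.27 to 0.28 (edgeR quasi-likelihood adjusted p = 0.99). The occupancy of CS, 58.4%, was the highest of the 9 genes, and the corrected log2 fold change was 0.01.

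The 3 subunits of IDH3 did not pass the test. IDH3A (ENSG00000166411, chromosome 15, positions 78131498 to 78171945, plus strand) encodes the catalytic alpha subunit. It had 1645 and 1494 counts in the knockdown libraries, against 1668 and 2005 in the controls, or 102 ± 1.53 CPM in the knockdown and 121 ± 7.38 CPM in the control (SD, n = 2 each). The groups did not overlap in CPM, but the adjusted p missed the threshold (log2 fold change -0.25, 95% interval -0.49 to -0.02, edgeR quasi-likelihood adjusted p = 0.107). Its counts are uncertain, since 38.9% of its exon bases are shared with CIB2 and ACSBG1 on the opposite strand. Both of those genes were called as lower, with log2 fold changes of -0.56 for CIB2 and -0.81 for ACSBG1, and the sources used here do not say whether counting used strand. Their part in the IDH3A value was not tested.

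IDH3B (ENSG00000101365, chromosome 20, positions 2658395 to 2664219, minus strand), the beta subunit, had 1468 and 1338 counts in the knockdown libraries, against 1341 and 1514 in the controls (log2 fold change -0.06, 95% interval -0.31 to 0.19). IDH3G (ENSG00000067829, chromosome X, positions 153785766 to 153794523, minus strand), the regulatory gamma subunit, had 955 and 754 counts in the knockdown libraries, against 781 and 914 in the controls (log2 fold change -0.02, 95% interval -0.31 to 0.26). The values of both genes overlapped between the groups, and neither was called (edgeR adjusted p = 0.759 and 0.929). These intervals still allow changes of the size seen for IDH3A. Within the summed IDH3 level per kilobase, IDH3A made up 19.5% and 20.3% in the knockdown libraries, against 21.9% and 22.8% in the controls, a difference of -2.44 percentage points (exact two-sided permutation p = 0.33). The IDH3B and IDH3G shares overlapped between the groups.

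**Figure D3:**
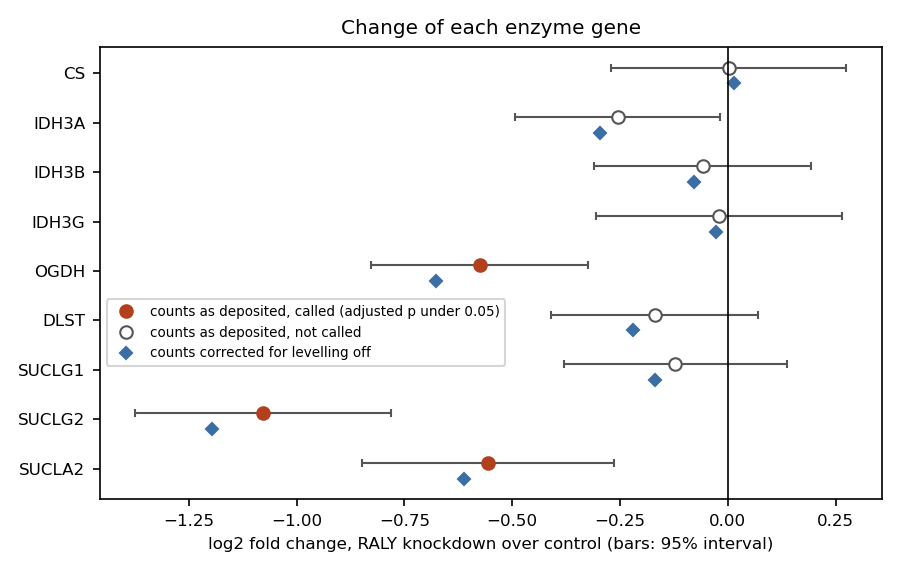
Log2 fold change (RALY knockdown over control) of each enzyme gene. Circles with 95% intervals are from the counts as deposited, filled where called, and diamonds are from counts corrected for levelling off. SUCLG2, OGDH and SUCLA2 lie at -1.08, -0.58 and -0.56, and the correction moves them to -1.20, -0.68 and -0.61.

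Levels were ordered per kilobase of canonical transcript, separately in each group. In the knockdown the order ran from CS at 76.6 ± 1.5 CPM per kilobase through IDH3B (58.9), SUCLG1 (57.3), DLST (45.0), IDH3G (41.3), OGDH (26.9) and IDH3A (24.9) to SUCLA2 at 15.8 ± 1.31 and SUCLG2 at 15.3 ± 2.32 CPM per kilobase. In the control the order ran from CS at 76.5 ± 8.49 CPM per kilobase through SUCLG1 (62.4), IDH3B (61.4), DLST (50.7), IDH3G (42.0), OGDH (40.1), SUCLG2 (32.4) and IDH3A (29.7) to SUCLA2 at 23.2 ± 0.652 CPM per kilobase (SD, n = 2 each). In the knockdown, the neighbours IDH3B and SUCLG1, DLST and IDH3G, and SUCLA2 and SUCLG2 overlapped between libraries. In the control, SUCLG1 and IDH3B overlapped, as did IDH3G and OGDH. SUCLG2 therefore stood above IDH3A in both controls and below it in both knockdown libraries. These levels depend on the transcript length taken and can be compressed for the most abundant genes.

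The rest of the cycle gave 3 lower genes of 10, and all 10 log2 fold changes were below 0, with a median of -0.26. Over all tested genes, 13.1% were called as lower and 12.5% as higher, and 48.6% had a log2 fold change below 0. The same shares stand beside the counts of each list that follows. IDH2, the mitochondrial NADP-dependent isocitrate dehydrogenase, had 531 and 414 counts in the knockdown libraries, against 984 and 1092 in the controls (log2 fold change -1.17, SE 0.143, edgeR quasi-likelihood adjusted p = 0.0002). Per kilobase, IDH2 stood at 0.496 and 0.426 of the IDH3A level in the knockdown libraries, against 0.906 and 0.837 in the controls (exact two-sided permutation p = 0.33). SDHC, a membrane anchor of succinate dehydrogenase, fell by 0.49 on the log2 scale at an occupancy of 70.0%, and OGDHL is the other called gene. With counts corrected for levelling off, the log2 fold change of SDHC was -1.09 (edgeR adjusted p = 0.00502). That correction takes the canonical length of 1308 bases, while the full exon length of SDHC is 14160 bases. The corrected value therefore depends on the length taken. SDHC was not called without control replicate 1 or without control replicate 2 (edgeR adjusted p = 0.055 and 0.0739), while IDH2 and OGDHL were called with each library left out. DLD, MRPS36, SDHA, SDHB, SDHD, FH and MDH2 were not called, with log2 fold changes from -0.30 to -0.03. With corrected counts SDHA was called, at -0.39 on the log2 scale (edgeR adjusted p = 0.0316). This value also depends on the length, with 2693 canonical and 8765 full exon bases for SDHA.

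The list for pyruvate entry holds pyruvate dehydrogenase with its regulators, pyruvate carboxylase and the pyruvate carrier. It gave 1 lower gene of 14 and none higher, with a median of -0.06. That gene was PDK2, a kinase that inhibits pyruvate dehydrogenase, at -0.46 on the log2 scale; its count is uncertain, since it shares 38.6% of its exon bases with SAMD14. PDHX, a structural subunit of pyruvate dehydrogenase, was called with corrected counts (-0.36 on the log2 scale, edgeR adjusted p = 0.0458). The lipoate synthesis list, whose product DLST carries, gave 1 lower gene of 7, the mitochondrial enoyl reductase gene MECR at -0.49, with a median of -0.10. Neither gene was called without control replicate 1 or without control replicate 2, and MECR was not called without knockdown replicate 2 (edgeR adjusted p from 0.0704 to 0.184).

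Among enzymes related to 2-oxoglutarate dehydrogenase, 4 of 5 genes were lower, with a median log2 fold change of -0.79. DHTKD1, an E1 subunit that acts on 2-oxoadipate, stood at 37.3 ± 3.34 CPM in the knockdown and 64.6 ± 4.89 CPM in the control (SD, n = 2 each; log2 fold change -0.79, edgeR adjusted p = 0.00126). BCKDHA and BCKDHB, the E1 subunits of branched-chain 2-oxoacid dehydrogenase, fell by 1.59 and 1.38 on the log2 scale, and BCKDK, the kinase that inhibits that complex, fell by 0.79. DBT, its E2 core, had 1288 and 957 counts in the knockdown libraries, against 1019 and 1376 in the controls, and was not called (log2 fold change -0.12, edgeR adjusted p = 0.552). BCKDHA counts are uncertain, since 73.7% of its exon bases are shared with a second gene on the same strand, ENSG00000255730, which had 300 and 318 counts in the knockdown libraries, against 802 and 1047 in the controls. Without control replicate 1, DHTKD1 had an edgeR adjusted p of 0.0507, while BCKDHA, BCKDHB and BCKDK were called with each library left out.

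Succinyl-CoA is also made from propionyl-CoA and used in heme and ketone metabolism. The 10 genes listed were those of these routes together with SUGCT and SIRT5. Of them, 5 were lower and none was higher, with a median of -0.46. PCCA and PCCB, the subunits of propionyl-CoA carboxylase, fell by 0.92 and 0.86 on the log2 scale, SUGCT, which transfers CoA from succinyl-CoA to glutarate, by 0.88, and MMAB, an enzyme of the cobalamin cofactor, by 0.72. SIRT5, a desuccinylase, fell by 0.41 and is named here after its value was seen. ALAS1, which begins heme synthesis, and OXCT1, which uses succinyl-CoA to activate ketone bodies, were not called (0.18 and -0.07 on the log2 scale). PCCB shares 22.2% of its exon bases with STAG1. Without control replicate 1, and likewise without control replicate 2, none of these 5 genes was called (edgeR adjusted p from 0.0514 to 0.231), and SIRT5 was not called without knockdown replicate 2 (edgeR adjusted p = 0.123) or with the DESeq2 Wald test (adjusted p = 0.0646).

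Of 7 tested genes for glutamine use and anaplerosis, 3 were lower. GLUD1, glutamate dehydrogenase, and GPT2, alanine aminotransferase, fell by 0.43 and 0.67 on the log2 scale. PCK2, mitochondrial PEP carboxykinase, fell by 1.62 on the log2 scale. GLUD1 has a near-identical paralog, GLUD2, with 17 and 8 counts in the knockdown libraries, against 23 and 34 in the controls. GLS2 had too few counts to be tested. The GLUD1 call was lost without knockdown replicate 2 and without either control (edgeR adjusted p from 0.0709 to 0.209). The GPT2 call was lost without control replicate 2 (edgeR adjusted p = 0.0915), and PCK2 was called with each library left out.

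Of 9 tested genes for citrate export and cytosolic counterparts, 4 were lower and none higher. SLC25A1, the mitochondrial citrate carrier, fell by 0.85 on the log2 scale, the oxoglutarate carrier SLC25A11 by 0.49, the cytosolic isocitrate dehydrogenase IDH1 by 0.41 and the dicarboxylate carrier SLC25A10 by 0.40. SLC25A10 shares 46.6% of its exon bases with another gene. ACLY, which splits exported citrate, was not called (0.05 on the log2 scale). SLC25A1 was called with each library left out, while the other 3 were not called without either control, nor SLC25A10 without knockdown replicate 2 (edgeR adjusted p from 0.0665 to 0.233).

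None of 10 genes for upkeep of mitochondrial DNA was called by edgeR, with log2 fold changes from -0.22 to 0.26; 1 of them, the nuclease gene MGME1, had an unadjusted p under 0.05, and DESeq2 called 0. Of 9 tested regulators of mitochondrial genes, NRF1 and TFB1M fell by 0.49 and 0.54 and PPARGC1B rose by 0.38 on the log2 scale. NRF1 is a transcription factor of nuclear genes for mitochondria, TFB1M a methyltransferase of mitochondrial ribosomal RNA and PPARGC1B a coactivator. TFB1M shares 38.7% of its exon bases with other genes. These 3 calls were each lost when either control was left out, and that of PPARGC1B without knockdown replicate 1 (edgeR adjusted p from 0.107 to 0.405). The PPARGC1B call was also lost with DESeq2 size factors, with the DESeq2 Wald test and with saturation-corrected counts (adjusted p = 0.0585, 0.0799 and 0.0605).

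**Figure D4:**
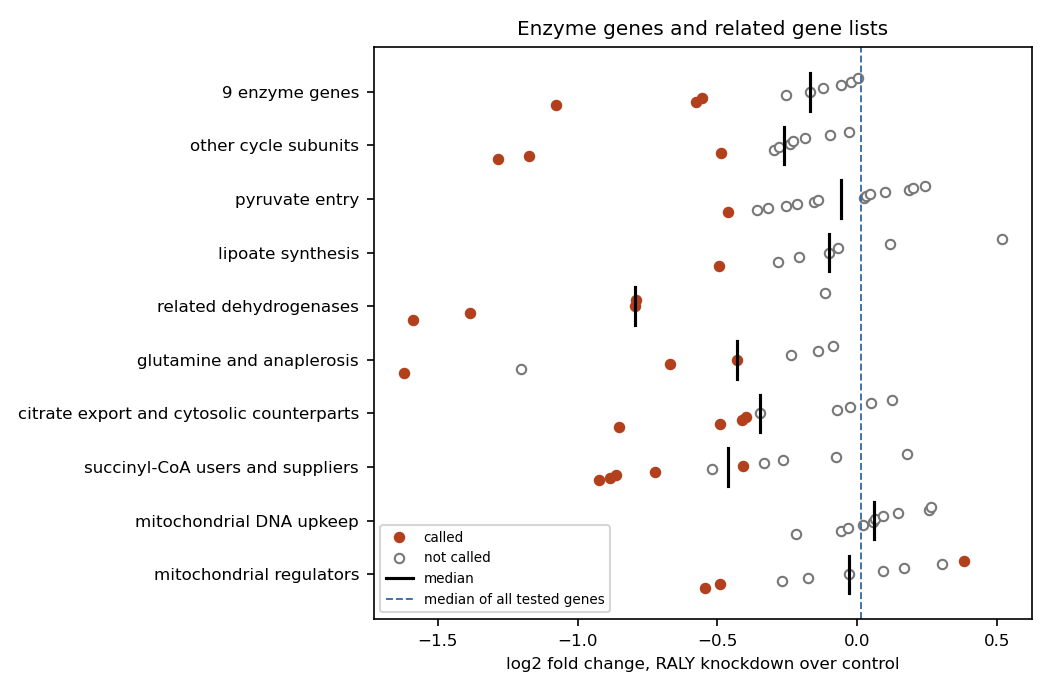
Log2 fold change (RALY knockdown over control) of the 9 enzyme genes and of each list of related genes. Points are genes, filled where called, black bars are list medians and the dashed line is the median of all tested genes, 0.01. The list of related dehydrogenases has a median of -0.79, while that of mitochondrial DNA upkeep lies at 0.06.

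Over these 9 lists together, 23 of 81 tested genes were lower and PPARGC1B was higher, with a median log2 fold change of -0.21. DESeq2 called 0 of the 81 as higher, and beside PPARGC1B a higher gene with an unadjusted p under 0.05 was found once each for lipoate synthesis (LIPT1, 0.52 on the log2 scale) and mitochondrial DNA upkeep (MGME1). The shares called over all tested genes were 13.1% lower and 12.5% higher. Because the lists were chosen with earlier results of these data known, setting them beside these shares is not a test of the lists. Of the 24 called genes, 23 remained called without knockdown replicate 1, 20 without knockdown replicate 2, and 8 without control replicate 1 or without control replicate 2. All 24 kept their direction in these fits. Without a control, the spread is taken from the knockdown pair, and the called share over all genes was then 4.79% without control replicate 1 and 4.82% without control replicate 2.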

How the data were processed

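RNA from 2 RALY knockdown and 2 control libraries of HCT116 cells was sequenced. The authors deposited raw read counts for each gene, beside exon positions and gene length, in the layout of featureCounts, per the file headers. Tools named in the submitters' processing notes are HISAT2 2.0.4, featureCounts, Subread and SAMtools, with GRCh38 as the build. The sources used here do not state strand use or removal of duplicate reads; duplicate removal or strand-blind counting would compress abundant genes or mix overlapping ones. Symbols and canonical transcripts came from GENCODE release 44, in which 58472 of the 58884 gene IDs were found.

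Counts were tested with edgeR 4.0.16 (R 4.3.3): filterByExpr, TMM factors and a robust quasi-likelihood F test with a term for the group, with Benjamini-Hochberg adjustment over all 19686 genes tested. CPM uses TMM-scaled totals. Intervals for fold changes are at 95% and rest on the spread between libraries. The correction for levelling off takes each count as filled start positions, 2 per base of the canonical transcript, capped at 98% filled. It would be smaller with a longer length. Shares and ratios were tested with an exact permutation test. The edgeR fit was tested on simulated data. Alternatives were DESeq2 1.42.0 size factors or Wald test, other filters on low counts, the replicate number as a block, corrected counts and each library left out. Within each group the libraries differed by more than counting error: a chi-square test against it gave 6.61 per degree of freedom in the knockdown and 3.79 in the control. That excess may be technical.

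Members and lists were chosen with earlier results of these data known. 2 genes of the related lists are not reported here and are left out of the lists' counts and medians. All 9 members were named, and up to 4 called genes of each list, by smallest p; genes not called were named as values, and SIRT5 was named outside this rule, after its value was seen.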

Additional observations from a re-analysis of the deposited data

How the results depend on the processing

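Direction and call of the 9 enzyme genes and of RALY were recomputed under 10 alternatives each; 97 of the 100 values stayed on their side of the threshold. The 3 calls lost were that of OGDH without control replicate 1 and those of SUCLA2 without either control. With 1 library left out, OGDH ran from -0.67 to -0.53, SUCLA2 from -0.66 to -0.48 and SUCLG2 from -1.26 to -0.94 on the log2 scale, and the number of enzyme genes called as lower from 1 to 3. Fold changes of CS, IDH3B and IDH3G, which were not called, changed sign in some settings. With 1 library left out, calls over all genes ran from 508 to 3351 lower and from 340 to 2908 higher, against 2578 and 2470 with all libraries; calls in the related lists ran from 8 to 27 lower and from 0 to 3 higher, against 23 and 1. A fit without a library takes its spread from the remaining pair. The related lists had 0 higher genes with DESeq2 size factors, with the DESeq2 Wald test and with corrected counts, and the cause was not tested. The SUCLG2 share of beta subunits differed by -6.08 percentage points with the full exon length, where the length itself changes the share.

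Same-numbered libraries share only a number in the labels, and their deviations from the group means had a correlation of 0.239 across genes. With the replicate block, edgeR called 3536 genes as lower and 3518 as higher, 3 of the 9 enzyme genes as lower, and 3 related genes as higher.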
